A study of Mus musculus with 6 samples.

Results

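The genes described here are the mouse fibroblast growth factor (FGF) ligands, their receptors, and the feedback and effector genes that FGF signalling is known to switch on. They were found by gene symbol and number 34 of the 21937 genes measured: 21 ligands, 5 receptors and 8 feedback or effector genes. All 34 had 1 row in each of the 6 files. The libraries are chromatin immunoprecipitation sequencing (ChIP-seq) of 2 immortalized lines from the E11.5 metanephros, the embryonic mouse kidney. The lines are named mK4 and mK3, both of strain CD1. For each line there is 1 H3K4 library and 1 H3K27 library, called so after their antibody's label, and 1 library of input chromatin. The labels name no treatment, stage or genotype that separates mK4 from mK3, and neither line is a control. The sources used here do not give the immortalizing agent or the number of cultures.

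FGF ligands bind receptor tyrosine kinases (Fgfr1 to Fgfr4) together with heparan sulfate or a Klotho co-receptor, and the receptors signal through Ras and the MAP kinases to ETS transcription factors. Sprouty and Spred proteins and the phosphatase Dusp6 are switched on by the same signal and damp it, so their genes serve as readouts of FGF activity. In the embryonic kidney FGF9 and FGF20 maintain nephron progenitors, FGF8 is needed for their survival as nephrons form, and FGF7 and FGF10 act on the ureteric bud. Methylated lysine 4 of histone H3 is typical of active promoters, whereas Polycomb proteins, which keep developmental genes silent, trimethylate lysine 27. The labels do not give the degree of methylation either antibody detects. The catalogue number given for the H3K4 antibody, ab8898, is sold as an antibody against trimethylated lysine 9 of histone H3, so the label and the number differ, and which residue was pulled down was not tested. The libraries are called here by their labels.

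Values are reads over exons, so signal upstream of a gene's first exon is not in them. Library totals lay between 311409 reads (mK3 input) and 714011 reads (mK4 H3K4), and the median count of a gene row between 10 and 23. A ratio on the log2 scale was taken on reads scaled to equal totals plus a pseudocount of 5, which shrinks the ratios of genes with low counts. A gene is called marked where an antibody library reached 2-fold over the input of the same line on that scale. Folds printed with an interval are ratios of read shares without pseudocount, and the interval is an exact 95% counting interval. With 1 library per group there was no replicate and no test, and intervals cover counting error only. The 332 genes named Zfp with a number are a large zinc finger family. They lay at 1.004-fold their input in the mK4 H3K4 library (0.976 to 1.03) and 0.981-fold in the mK3 one (0.95 to 1.01). In the H3K27 libraries they lay at 0.879-fold in mK4 (0.852 to 0.907) and 0.826-fold in mK3 (0.799 to 0.853). These values were not a test of which residue was pulled down. Of 10 metanephric mesenchyme markers, H3K4 marked 0 in either line, and H3K27 marked 0 in mK4 and 1, Six2, in mK3. Of 6 markers each, H3K4 marked 1 endothelial, 0 blood and 2 ureteric bud genes in mK4 and 0, 0 and 1 in mK3, and H3K27 marked 1, 1 and 1 in mK4 and 1, 1 and 0 in mK3. Of all genes, H3K4 marked 3.69% in mK4 and 4.94% in mK3, and H3K27 marked 9.06% and 10.3%. Lists of 6 to 10 genes are too short to set such counts apart from these shares. Reads over exons measure no expression, so the labelled cell type could not be checked from these marks.

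The ligands and the feedback and effector genes differed in their summed read shares over input. Summed over the 8 feedback and effector genes, the H3K4 read share was 1.45-fold that of input in mK4 (1.22 to 1.72) and 1.67-fold in mK3 (1.36 to 2.06). The 21 ligands lay at 0.817-fold in mK4 (0.696 to 0.959) and 0.907-fold in mK3 (0.766 to 1.08). For H3K27 the order was the other way round. The ligands lay at 1.52-fold input in mK4 (1.31 to 1.78) and 1.66-fold in mK3 (1.43 to 1.94), and the feedback and effector genes at 0.625-fold (0.5 to 0.779) and 0.908-fold (0.726 to 1.14). The 5 receptors lay near input throughout, with H3K4 at 0.942-fold in mK4 and 0.887-fold in mK3 and H3K27 at 1.01-fold and 0.87-fold, and each of these intervals included 1. Within each line, the intervals of the ligands and of the feedback and effector genes did not overlap for either mark. These intervals cover counting error and leave out the spread among the genes of a kind. The kinds also differed in the CpG content of their promoters, given further on. Without Dusp6, the feedback gene with the most reads, the H3K4 sum in mK4 was 1.19-fold input.

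**Figure D1:**
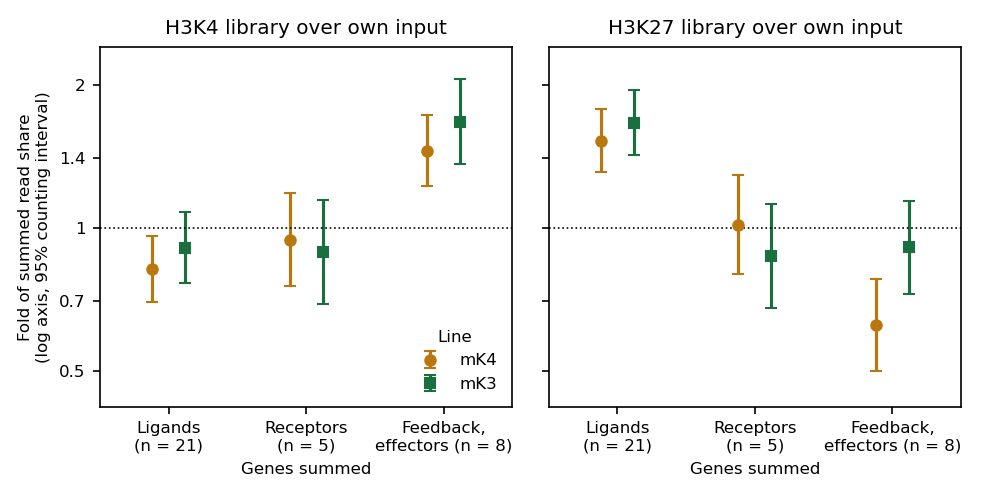
Read share of each antibody library over the same line's input (log axis), summed over 21 ligands, 5 receptors and 8 feedback and effector genes; circles are mK4, squares mK3, and bars 95% counting intervals. H3K4 lay above input at the feedback and effector genes (1.45-fold in mK4, 1.67-fold in mK3) and H3K27 at the ligands (1.52-fold and 1.66-fold).

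Gene by gene, with a pseudocount of 5 and the 2-fold rule, marked members fell on the same division. H3K4 marked 1 of the 34 members in mK4 (Dusp6) and 3 in mK3 (Spry2, Etv4 and Spred2), and all 4 were feedback or effector genes. That was 2.94% and 8.82%, against 3.69% and 4.94% of all genes. H3K27 marked 4 of the 34 in mK4 (Fgf15, Fgf16, Fgf20 and Fgf23) and 6 in mK3 (Fgf4, Fgf8, Fgf9, Fgf18, Fgf20 and Fgf23). That was 11.8% and 17.6%, against 9.06% and 10.3% of all genes, and all 8 of these were ligands. In mK4 the shares over all 34 lay near those of all genes. Among the 21 ligands alone H3K27 marked 19.0% in mK4 and 28.6% in mK3. Among the 8 feedback and effector genes alone H3K4 marked 12.5% in mK4 and 37.5% in mK3. No member held both marks in either line, where 0.78% of all genes did in mK4 and 1.39% in mK3. None was marked by H3K4 in both lines, where 0.811% of all genes were. By any amount, H3K27 lay above input at 15 of the 21 ligands in mK4 and 17 in mK3, against 47% and 49.7% of all genes. H3K4 lay above input at 5 of the 8 feedback and effector genes in mK4 and 6 in mK3, against 47.1% and 47.2%. The median ratio of H3K27 over input was 0.50 on the log2 scale for ligands in mK4 and 0.65 in mK3, against -0.58 and -0.11 for feedback and effector genes and 0.00 for all genes in both lines. The members marked depended on the settings. With a pseudocount of 10, H3K27 marked 1 in mK4 (Fgf15) and 3 in mK3 (Fgf4, Fgf9 and Fgf20), and measured against exon length it marked 2 in mK4 (Fgf15 and Fgf20) and 2 in mK3 (Fgf8 and Fgf9). Other settings crossed the division. Against exon length, H3K4 also marked the ligand Fgf7 in mK3. With a pseudocount of 1, H3K4 marked the ligands Fgf2 in mK4 and Fgf20 in mK3, and H3K27 marked Etv4 in mK3, so that these genes then held both marks. At a 1.5-fold threshold H3K4 also marked Fgf1, Fgf2 and the receptor Fgfrl1 in mK4 and Fgf20 in mK3, and H3K27 marked the receptor Fgfr4 and Etv4 in mK3.

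**Figure D2:**
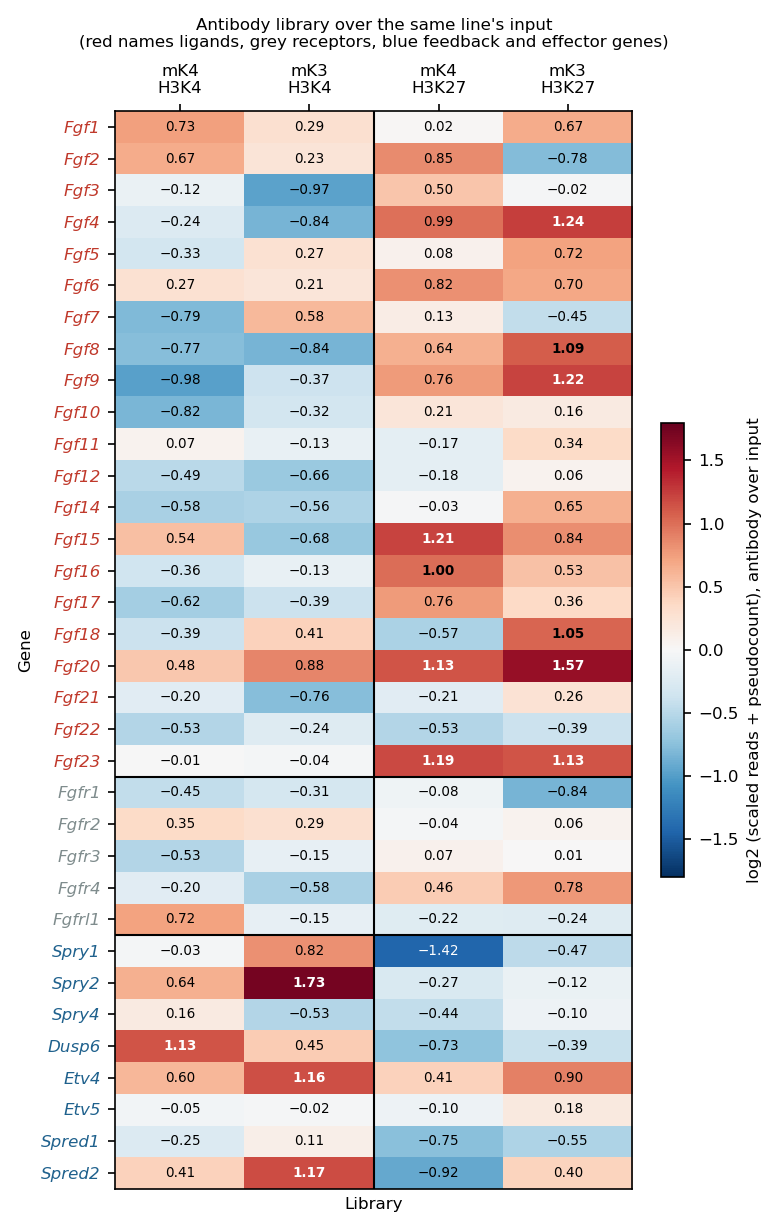
Each of the 34 members (rows) in the 4 antibody libraries (columns), as the log2 ratio of scaled reads plus the pseudocount over the same line's input; bold values are marked genes. Marked cells stand in the blue-named feedback and effector genes for H3K4 and in the red-named ligands for H3K27, and no receptor is marked.

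Setting the 2 antibodies against each other within a line leaves the input out. All 8 feedback and effector genes had more scaled H3K4 than H3K27 reads in mK4, and 6 of 8 did in mK3, against 48.4% and 44.5% of all genes. Among the ligands, 5 of 21 did in mK4 and 3 of 21 in mK3. The median log2 ratio of H3K4 over H3K27 was 0.75 in mK4 and 0.71 in mK3 for the feedback and effector genes, and -0.62 and -0.69 for the ligands. It ran among all members between -1.75 (Fgf9) and 1.86 (Dusp6) in mK4, and between -2.08 (Fgf4) and 1.85 (Spry2) in mK3.

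Dusp6, the MAP kinase phosphatase gene on chromosome 10, and Spry2, a Sprouty gene on chromosome 14, had the highest H3K4 levels of all members in mK4 and in mK3, in that order. In the authors' RPKM values, counts normalised to exon length and library total, Dusp6 had 95.04 in the mK4 H3K4 library and 51.6 in the mK3 one, and Spry2 had 48.9 and 82.0. Dusp6 stood above Spry2 in mK4 and below it in mK3, where the ligand Fgf7 came second at 54.0 RPKM. Dusp6 had 190 H3K4, 32 H3K27 and 45 input reads in mK4, against 86, 45 and 32 reads in mK3. Its H3K4 share was 1.84-fold higher in mK4 (1.42 to 2.4), beside an input fold of 1.13 (0.704 to 1.84). It lay 2.29-fold over input in mK4 (1.64 to 3.24) and 1.41-fold in mK3 (0.927 to 2.18). Spry2 had 73 H3K4, 24 H3K27 and 24 input reads in mK4, against 102, 24 and 14 reads in mK3. Its H3K4 share was 1.68-fold lower in mK4 (1.23 to 2.3), and it lay 1.65-fold over input in mK4 (1.03 to 2.73) and 3.81-fold in mK3 (2.17 to 7.22). Neither difference between the lines reached 2-fold, so neither was called. The promoters of these feedback genes are shown because they lie beside the first exons counted. They run from 250 bases before to 50 bases after the annotated start, in RefSeq's GRCm38.p6, a later build than that of the files, and capitals mark CpG pairs.
Dusp6, chr10:99262981-99263280, plus strand, 19 CpG pairs: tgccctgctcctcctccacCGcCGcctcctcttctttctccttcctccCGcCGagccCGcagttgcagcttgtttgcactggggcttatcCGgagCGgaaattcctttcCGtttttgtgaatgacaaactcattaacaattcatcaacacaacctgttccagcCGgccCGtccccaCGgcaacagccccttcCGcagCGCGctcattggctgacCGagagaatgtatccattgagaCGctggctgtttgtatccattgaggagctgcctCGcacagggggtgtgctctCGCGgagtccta
Spry2, chr14:105896770-105897069, minus strand, 28 CpG pairs: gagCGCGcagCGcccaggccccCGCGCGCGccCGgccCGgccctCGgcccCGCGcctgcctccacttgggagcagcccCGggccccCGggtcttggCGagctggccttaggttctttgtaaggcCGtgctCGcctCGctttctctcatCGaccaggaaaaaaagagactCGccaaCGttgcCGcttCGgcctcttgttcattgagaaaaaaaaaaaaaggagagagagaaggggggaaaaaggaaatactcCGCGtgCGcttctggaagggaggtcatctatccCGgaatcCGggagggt

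Etv4 and Etv5 encode ETS transcription factors that act downstream of FGF receptors in the kidney and other buds. Etv4 had 40 H3K4, 23 H3K27 and 13 input reads in mK4, against 37, 30 and 7 reads in mK3. Its H3K4 lay 1.67-fold over input in mK4 (0.873 to 3.4) and 2.77-fold in mK3 (1.22 to 7.35), and the share of H3K4 reads was about level between the lines at 0.901-fold (0.562 to 1.45). Etv5 had 14 H3K4, 9 H3K27 and 8 input reads in mK4, against 15, 18 and 8 in mK3, and lay at 0.948-fold and 0.981-fold input for H3K4. Its H3K4 level was the lowest of the feedback and effector genes in mK4 at 5.11 RPKM and in mK3 at 6.57 RPKM.

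The other Sprouty and Spred genes, whose products restrain Ras signalling, differed among themselves. Spred2 had 44 H3K4, 9 H3K27 and 17 input reads in mK4, against 33, 17 and 6 reads in mK3, so that it lay 1.4-fold over input in mK4 (0.785 to 2.62) and 2.88-fold in mK3 (1.19 to 8.4) for H3K4. Spry1, which limits Ret signalling in the ureteric bud, had 54 H3K4, 11 H3K27 and 30 input reads in mK4, against 55, 19 and 15 in mK3. It had the lowest H3K27 ratio to input of all members in mK4, at 0.295-fold (0.133 to 0.605). Spry4 had 44 H3K4, 18 H3K27 and 21 input reads in mK4, against 26, 37 and 21 in mK3, with H3K27 1.67-fold lower in mK4 (0.926 to 3.11). Spred1 had 47 H3K4, 21 H3K27 and 31 input reads in mK4, against 48, 28 and 23 in mK3. As a pair of families, Sprouty and Spred genes lay at 1.15-fold input for H3K4 in mK4 (0.928 to 1.44) and 1.748-fold in mK3 (1.35 to 2.28).

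**Figure D3:**
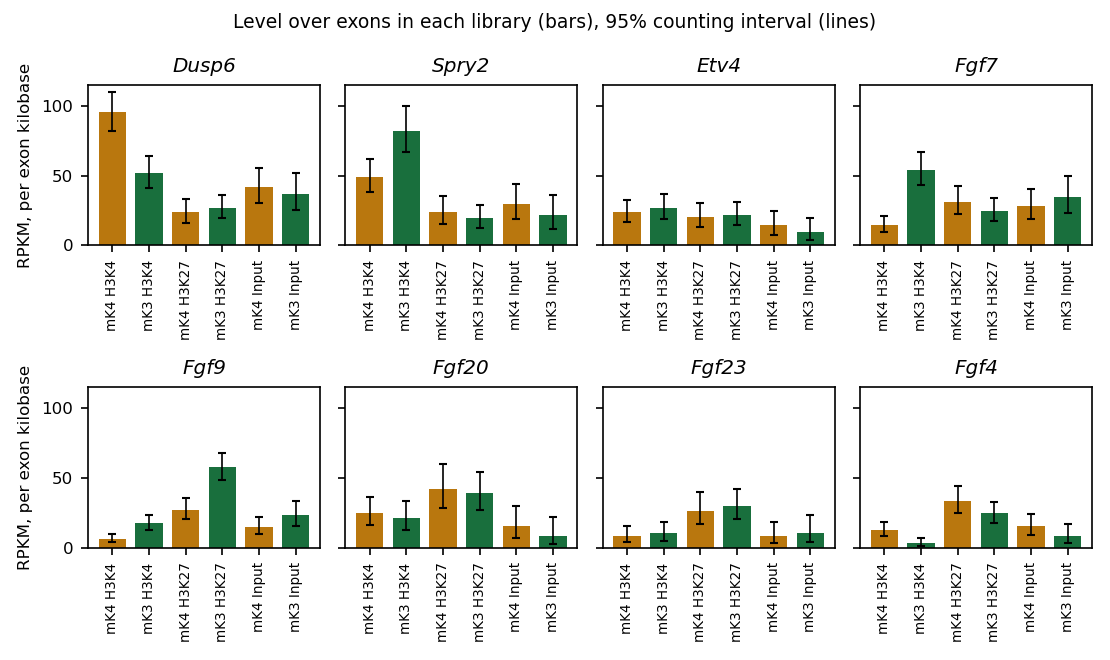
Level over exons in RPKM of 8 members in the 6 libraries (orange bars mK4, green bars mK3), with 95% counting intervals as lines. Dusp6 and Spry2 stood highest in the H3K4 libraries, each in a different line (95.04 RPKM for Dusp6 in mK4 and 82.0 RPKM for Spry2 in mK3), and Fgf9 highest in the mK3 H3K27 library.

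Among the ligands, H3K27 was most evident in the FGF9 subfamily, the endocrine FGFs and the FGF4 subfamily. The 3 FGF9 subfamily genes (Fgf9, Fgf16 and Fgf20) lay together at 2.11-fold input in mK4 (1.51 to 2.98) and 2.55-fold in mK3 (1.8 to 3.67). The 3 endocrine FGFs, hormones that act with Klotho co-receptors (Fgf15, Fgf21 and Fgf23), lay at 2.21-fold (1.37 to 3.69) and 2.28-fold (1.28 to 4.3). The FGF4 subfamily (Fgf4, Fgf5 and Fgf6) lay at 1.72-fold (1.18 to 2.53) and 2.27-fold (1.41 to 3.79). The FGF8 subfamily (Fgf8, Fgf17 and Fgf18) lay at 1.42-fold in mK4 (0.861 to 2.4) and 1.95-fold in mK3 (1.23 to 3.2). For the intracellular FGFs (Fgf11, Fgf12 and Fgf14), which bind sodium channels and not FGF receptors, the values were 0.895-fold (0.553 to 1.46) and 1.36-fold (0.905 to 2.08). The FGF7 subfamily (Fgf3, Fgf7, Fgf10 and Fgf22) lay at 1.15-fold (0.825 to 1.62) and 0.897-fold (0.654 to 1.24), and the FGF1 subfamily (Fgf1 and Fgf2) at 1.21-fold and 1.4-fold, with intervals that include 1. Subfamilies sum few genes and few reads, and most of these intervals overlap each other.

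Fgf20 and Fgf23 were the members marked by H3K27 in both lines, where 2.85% of all genes were. With a pseudocount of 10, or measured against exon length, no member was marked in both lines. Fgf20, which maintains nephron progenitors, had 30 H3K27, 26 H3K4 and 9 input reads in mK4, against 34, 19 and 4 reads in mK3. Its H3K27 lay 2.68-fold over input in mK4 (1.24 to 6.41) and 4.46-fold in mK3 (1.59 to 17.3), and was the highest of all members in mK4 at 42.2 RPKM. Fgf23, a hormone of bone that controls phosphate handling in the adult kidney, had 23 H3K27, 11 H3K4 and 6 input reads in mK4, against 32, 11 and 6 in mK3. It lay 3.08-fold over input in mK4 (1.22 to 9.25) and 2.8-fold in mK3 (1.16 to 8.19). Neither gene differed between the lines in H3K27 beyond counting error, with folds of 1.09 (0.643 to 1.83) and 0.886 (0.495 to 1.56). Fgf4, a ligand of early embryos and limb buds, was marked in mK3 and fell just short in mK4. It had 49 H3K27, 27 H3K4 and 18 input reads in mK4, against 44, 6 and 8 in mK3, and log2 ratios of H3K27 over input of 0.99 and 1.24. The promoters of Fgf4 and Fgf23, and of Fgf9, are shown in the same form as those of Dusp6 and Spry2 because they differ in CpG content while their genes had H3K27 over input.
Fgf4, chr7:144861136-144861435, plus strand, 28 CpG pairs: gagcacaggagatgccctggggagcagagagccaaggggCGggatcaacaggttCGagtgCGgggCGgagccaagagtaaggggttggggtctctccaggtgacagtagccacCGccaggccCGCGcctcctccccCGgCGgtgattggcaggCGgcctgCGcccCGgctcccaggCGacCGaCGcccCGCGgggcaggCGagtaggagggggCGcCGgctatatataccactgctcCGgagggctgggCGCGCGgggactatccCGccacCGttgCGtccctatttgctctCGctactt
Fgf9, chr14:58072436-58072735, plus strand, 12 CpG pairs: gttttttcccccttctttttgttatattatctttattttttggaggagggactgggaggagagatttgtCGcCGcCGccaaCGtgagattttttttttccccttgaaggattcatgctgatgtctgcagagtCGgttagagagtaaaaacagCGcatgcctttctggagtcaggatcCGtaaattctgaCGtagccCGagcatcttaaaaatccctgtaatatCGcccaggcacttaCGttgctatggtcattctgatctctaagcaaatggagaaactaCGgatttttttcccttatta
Fgf23, chr6:127072652-127072951, plus strand, 6 CpG pairs: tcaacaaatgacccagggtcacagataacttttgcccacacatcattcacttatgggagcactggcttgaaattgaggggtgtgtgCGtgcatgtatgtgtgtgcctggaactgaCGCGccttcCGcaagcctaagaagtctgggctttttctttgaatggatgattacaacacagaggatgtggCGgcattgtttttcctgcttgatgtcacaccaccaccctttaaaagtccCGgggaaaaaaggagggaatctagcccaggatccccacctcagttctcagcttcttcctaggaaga

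Of the 34 members, 25 had an entry in the RefSeq promoter table, and 16 of these (64.0%) were CpG-rich, with a CpG frequency of at least 0.6 of that expected from base content and a GC content of at least 50%. Over the 14701 genes with an entry, 51.2% were CpG-rich. For a gene with several annotated starts, such as Fgf12, Fgfr3 and Etv5, the promoter with the most CpG pairs was kept. H3K27 marked 0 of the 16 CpG-rich members in mK4 and 2 (Fgf4 and Fgf18) in mK3, against 5.47% and 6.29% of all CpG-rich genes. Genes that failed either limit are called CpG-poor. The CpG-poor members were Fgf6, Fgf7, Fgf9, Fgf10, Fgf11, Fgf14, Fgf21, Fgf23 and the receptor Fgfr2. All feedback and effector genes with an entry were CpG-rich. Of the 9 CpG-poor members H3K27 marked 1 (Fgf23) in mK4 and 2 (Fgf9 and Fgf23) in mK3, against 13.2% and 15.03% of all CpG-poor genes. Fgf7 and Fgf9 failed only the GC limit, at 45.7% and 42.7%. Their CpG frequencies were 0.72 and 0.88 of that expected. H3K4 marked 1 of the 16 CpG-rich members in mK4 (Dusp6) and 2 in mK3 (Spry2 and Spred2), against 4.66% and 6.36% of all CpG-rich genes. It marked 0 of the 9 CpG-poor members in either line, against 2.91% and 4.18% of all CpG-poor genes. The letters CCGGAA, a core sequence bound by ETS factors, were found on either strand in 4 of the 25 promoters (16.0%), those of Fgf5, Fgfr4, Fgfrl1 and Spry2, and in 19.9% of all 14701. Fgf1, Fgf8, Fgf15, Fgf16, Fgf17, Fgf20, Fgfr1, Spry4 and Etv4 had no entry.

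The comparison of mK4 with mK3 asks which members carry different amounts of a mark in the 2 lines. A call, higher or lower, needed a mark in mK4 or mK3 and a 2-fold difference on the log2 scale. For H3K4 no member was called, against 0.424% of all genes called higher in mK4 and 0.392% lower. For H3K27, Fgf16 was called higher and Fgf9 lower, against 0.889% and 0.934% of all genes. By any amount, 16 of the 34 members were higher in mK4 for H3K4, 13 for H3K27 and 20 for input, against 45.8%, 42.9% and 45.9% of all genes. Summed by kind, no fold exceeded 1.21 or fell below 0.831. The H3K4 share of the ligands was 0.865-fold in mK4 relative to mK3 (0.749 to 0.998), that of the receptors 1.07-fold (0.869 to 1.31) and that of the feedback and effector genes 1.05-fold (0.919 to 1.2). For H3K27 the folds were 0.881 (0.783 to 0.99), 1.17 (0.934 to 1.46) and 0.831 (0.67 to 1.03) in the same order, beside input folds of 0.96 (0.799 to 1.16), 1 (0.767 to 1.31) and 1.21 (0.959 to 1.53). Without Dusp6 the H3K4 fold of the feedback and effector genes was 0.834, and without Fgfr1 the H3K27 fold of the receptors was 0.929, so these sums turned with 1 gene each.

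Fgf9, the nephron progenitor ligand on chromosome 14, had 54 H3K27, 19 H3K4 and 24 input reads in mK4, against 141, 43 and 30 reads in mK3. Its H3K27 was 2.12-fold lower in mK4 (1.54 to 2.96) and its H3K4 2.71-fold lower (1.55 to 4.93), so both read shares were lower there. H3K27 lay over input in both lines, at 1.81-fold in mK4 (1.1 to 3.06) and 2.47-fold in mK3 (1.65 to 3.79). H3K4 did not exceed input in either line, at 0.429-fold in mK4 (0.222 to 0.817) and 0.75-fold in mK3 (0.46 to 1.24). Around Fgf9, the input of the 10 nearest genes either way, summed, had a log2 ratio of -1.01, and the H3K27 ratio was -1.02 before and -0.01 after that was subtracted. Fgf16, on chromosome X, had 47 H3K27, 23 H3K4 and 17 input reads in mK4, against 19, 10 and 6 reads in mK3. Its H3K27 was 3.05-fold higher in mK4 (1.76 to 5.5), beside an input fold of 2.28 (0.858 to 7.07). The neighbour input ratio was 1.20, and the log2 ratio of H3K27 was 1.36 before and 0.16 after subtraction. Neither call was made after subtraction of neighbour input or of the gene's own input, or with a pseudocount of 10. Fgf9 also fell short of 2-fold under the other scalings, at -0.94 with median-of-ratios size factors, and Fgf16 was not marked when measured against exon length.

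Summed over each chromosome, input differed between the lines on several of them. It was 1.84-fold higher in mK4 over chromosome 3 (1.8 to 1.88), 1.54-fold over chromosome 7 (1.51 to 1.58) and 1.49-fold over chromosome X (1.45 to 1.54), and 0.644-fold over chromosome 14 (0.628 to 0.66). These chromosomes hold 12 of the 34 members, but the difference was not even along them. On chromosome 3 the log2 ratio of neighbour input was 0.0008 at Fgf2 and -0.03 at Spry1. At the 4 members on chromosome 14 it ran between -1.01 (Fgf9) and -0.23 (Spry2). At the 5 on chromosome 7 it ran between 0.42 (Fgf21) and 0.78 (Fgf3), and it was 1.20 at Fgf16 on chromosome X. Whether marked or not, 6 members were at least 2-fold apart in H3K4 between the lines, 3 higher (Fgf4, Fgf15 and Fgf21) and 3 lower (Fgf7, Fgf9 and Fgf17), against 4.51% and 2.99% of all genes. For H3K27, 1 was higher and 1 lower, Fgf16 and Fgf9, against 3.73% and 3.54%. For input, 1 was higher (Fgf18) and 0 lower, against 7.26% and 6.2%. Of these 6, 5 were among the 12 and 1, Fgf7, was among the other 22. After subtraction of neighbour input, none of the 12 was 2-fold apart in either mark, and of the other 22 the H3K4 of Fgf7, Fgf10 and Dusp6 was. The H3K4 ratios left after subtraction of neighbour input were -0.16 at Fgf9 and -0.22 at Fgf17 on chromosome 14, and 0.50 at Fgf4, 0.77 at Fgf15 and 0.79 at Fgf21 on chromosome 7. Neighbour input was 0.40 at Fgf10 and -0.50 at Dusp6, opposite in sign to their own input at -0.49 and 0.16. With own input subtracted instead, the H3K4 of Fgf7 stayed 2-fold apart at -1.38, while Fgf10 (-0.49) and Dusp6 (0.67) did not. Of the 12, Fgf15 (1.22) and Spry2 (-1.09) were then 2-fold apart in H3K4.

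**Figure D4:**
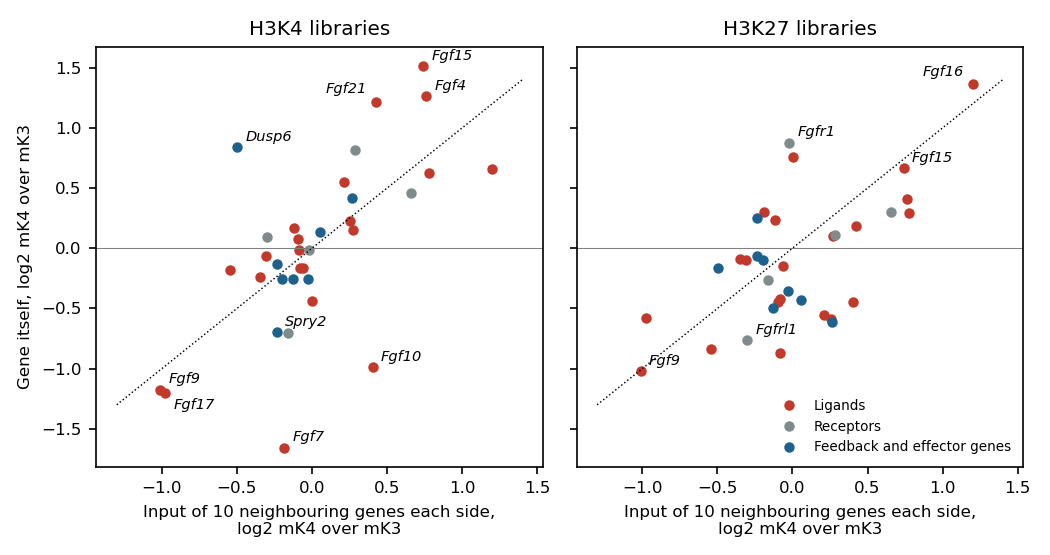
Log2 ratio of mK4 over mK3 at each member (vertical) against that of the summed input of its 10 neighbouring genes on each side (horizontal), for H3K4 (left) and H3K27 (right); the dotted line marks equal values. In H3K4, Fgf9 and Fgf17 lie near the line and Fgf7, Fgf10 and Dusp6 far from it; in H3K27, Fgf9 and Fgf16 lie near it.

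Fgf7, a mesenchymal ligand whose loss leaves a smaller ureteric tree, had the largest H3K4 log2 ratio of all members in size. It had 28 H3K4, 40 H3K27 and 29 input reads in mK4, against 86, 39 and 29 reads in mK3. Its H3K4 was 3.68-fold lower in mK4 (2.38 to 5.86), beside an input 1.24-fold lower (0.716 to 2.15) and an H3K27 fold of 1.26 (0.793 to 2.02). It lay at 0.523-fold its input in mK4 (0.3 to 0.911) and 1.55-fold in mK3 (1.01 to 2.45), short of the 2-fold rule, so it was not called. Its log2 ratio between the lines was -1.66. It was -1.47 once neighbour input was subtracted, and -1.38 once its own input was. Measured against exon length instead of input, it was called lower. Fgf10, the ligand of bud outgrowth and branching in lung, limb and kidney, had 19 H3K4, 31 H3K27 and 21 input reads in mK4, against 37, 54 and 25 in mK3. Its H3K4 was 2.34-fold lower in mK4 (1.31 to 4.3) and lay at 0.49-fold its input in mK4 (0.249 to 0.957) and 0.774-fold in mK3 (0.454 to 1.34).

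Fgf3, Fgf4 and Fgf15 are neighbours on chromosome 7 in the RefSeq gene order, with Ccnd1, a cell cycle gene that FGF signalling induces, further along. In H3K4 their log2 ratios between the lines were 0.62 at Fgf3, 1.26 at Fgf4 and 1.51 at Fgf15, with 1.06 at Ccnd1. Oraov1, which lies between Fgf15 and Ccnd1, was at -0.10, with 23 H3K4 and 15 input reads in mK4 against 21 and 2 in mK3. Fgf15, a gut hormone in the adult, had 30 H3K4, 35 H3K27 and 10 input reads in mK4, against 5, 25 and 6 reads in mK3. Its H3K4 was 5-fold higher in mK4 (1.92 to 16.5), and its H3K27 was 1.73-fold higher (1 to 3.01). The neighbour input ratios of Fgf3, Fgf4 and Fgf15 were 0.78, 0.76 and 0.74. After its subtraction the H3K4 ratio of Fgf3 was -0.15.

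Receptor genes were marked in neither line, and none was 2-fold apart between the lines on the log2 scale. Fgfr1, the main FGF receptor of kidney mesenchyme together with Fgfr2, had 70 H3K4, 62 H3K27 and 53 input reads in mK4, against 59, 39 and 39 reads in mK3. Its H3K27 was 1.96-fold higher in mK4 (1.29 to 3) beside an input fold of 1.09 (0.71 to 1.7), but H3K27 did not exceed input, at 0.94-fold in mK4 (0.641 to 1.38) and 0.525-fold in mK3 (0.328 to 0.84). Fgfr2, whose epithelial form receives FGF7 and FGF10, had 70 H3K4, 35 H3K27 and 29 input reads in mK4, against 41, 34 and 17 in mK3. Fgfr3 had 26 H3K4, 29 H3K27 and 22 input reads in mK4, against 39, 44 and 23 in mK3, and its H3K4 was 1.8-fold lower in mK4 (1.07 to 3.08). Fgfr4 had 20 H3K4, 24 H3K27 and 13 input reads in mK4, against 7, 27 and 7 in mK3, and its H3K4 fold of 2.38 had an interval that includes 1 (0.968 to 6.67). Fgfrl1, a receptor without a kinase domain that is needed for nephron formation, had 35 H3K4, 10 H3K27 and 10 input reads in mK4, against 27, 25 and 16 in mK3. Its H3K27 was 2.03-fold lower in mK4 (0.941 to 4.73) and its input 1.99-fold lower (0.848 to 4.9).

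Several of the remaining ligands had few reads. Fgf8, which nascent nephrons need, had 22 H3K27, 8 H3K4 and 10 input reads in mK4, against 39, 6 and 8 in mK3, and lay 1.77-fold over input in mK4 (0.803 to 4.18) and 2.56-fold in mK3 (1.18 to 6.34) for H3K27. Fgf18 was marked in mK3 on 14 H3K27 and 2 input reads, with 6 and 9 reads in mK4. Fgf14 had 17 H3K27 reads in mK4 against 42 in mK3, a share 2-fold lower in mK4 (1.12 to 3.76), with inputs of 14 and 13 reads. Fgf1 had 63 H3K4 reads in mK4 against 34 in mK3 (1.54-fold, 1 to 2.42), the most H3K4 reads of the ligands in mK4. Fgf21 had 12 H3K4 reads in mK4 and 1 in mK3 (10-fold, 1.48 to 428). Over the 21 ligands the H3K4 counts ran between 3 and 63 reads in mK4 and between 1 and 86 in mK3, and Fgf22 had at most 4 reads in any library. For Fgf2, Fgf3, Fgf11 and Fgf22, every counting interval between the lines included 1 in both marks. Fgf2, with 6 H3K27 reads in mK4 and 2 in mK3, was called higher for H3K27 with a pseudocount of 1.

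Other genes of the pathway were described by lists, to be read against the shares of all genes marked, 3.69% in mK4 and 4.94% in mK3 for H3K4 and 9.06% and 10.3% for H3K27. Of 24 signal relay genes, from the adaptor Frs2 to the MAP kinases, H3K27 marked 0 in either line and H3K4 1 in each (4.17%), near the share of all genes, and their H3K27 sum lay at 0.685-fold input in mK4 (0.617 to 0.761) and 0.655-fold in mK3 (0.589 to 0.729). Of 13 further target genes, H3K27 marked 0 in either line and H3K4 2 in each (15.4%), with H3K4 sums of 1.48-fold input in mK4 (1.32 to 1.66) and 1.41-fold in mK3 (1.23 to 1.61). Junb, an immediate early transcription factor gene, was marked by H3K4 in both lines, with 163 H3K4 and 40 input reads in mK4 against 114 and 23 in mK3. None of the relay and target genes was called between the lines in either mark. Of 16 co-receptor and modulator genes, H3K4 marked 1 in mK4 (6.25%) and 2 in mK3 (12.5%), and H3K27 the same numbers. Ext1, which builds heparan sulfate chains, was marked by H3K4 in both lines, at 217 H3K4 and 41 input reads in mK4 against 221 and 41 in mK3. Gpc3, a heparan sulfate proteoglycan gene on chromosome X, was called lower in mK4 for both marks, with 4 H3K4, 8 H3K27 and 2 input reads in mK4 against 19, 31 and 3 in mK3. Its H3K4 was 5.7-fold lower (1.89 to 23) and its H3K27 3.14-fold lower (1.41 to 7.92). Kl, which encodes the co-receptor of FGF23, was not called, but had 14 H3K4, 17 H3K27 and 9 input reads in mK4 against 59, 69 and 24 in mK3. All 3 of its libraries were lower in mK4, H3K4 by 5.05-fold (2.79 to 9.8), H3K27 by 3.29-fold (1.92 to 5.97) and input by 3.31-fold (1.49 to 8.09).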

How the data were processed

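Per the file headers, each deposited table gives counts, RPKM and the exon length of a gene in 22088 rows. The deposited counts were whole numbers, and the authors' RPKM values equalled counts divided by exon length and the table's own total, to within 4.2e-07. The submitters' processing notes name the build mm9. The sources used here do not give the aligner or the treatment of duplicate reads. Where a symbol had several rows (137 symbols), only that with the most antibody reads on average was kept. Counts were scaled to a mean total of 513622. Intervals are exact Clopper-Pearson for folds and exact Poisson for plotted RPKM, at 95%, with Python 3.11.15 and scipy 1.17.1. Gene order came from RefSeq (GRCm38.p6), 19325 genes matched by symbol and 2302 by synonym, with 310 unmatched.

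Members, lists and rules were chosen with earlier results of these data known. Members given in full were those called between lines, those marked in both lines, and the 2 per kind and mark with the largest ratio among those with at least 20 reads. The CpG limits, the CCGGAA search, the Zfp values and further members described were chosen after the data were seen. Alternatives changed the pseudocount, scaling, threshold, count minimum, background, and the subtraction of input.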

Additional observations from a re-analysis of the deposited data

Results flagged for a closer look

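Fgf18 was the only one of the 34 members marked by H3K27 in 1 line and below input in the other. Its H3K27 log2 ratio over input was -0.57 in mK4 and 1.05 in mK3, from 6 H3K27 and 9 input reads in mK4 and 14 and 2 reads in mK3. The fold over input was 0.536 in mK4 (0.157 to 1.69) and 3.68 in mK3 (0.844 to 33.3), so both intervals included 1. The difference between the lines was not tested.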

How the results depend on the processing

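Of the alternative values of counts and summed folds, 125 stayed within 1.5 times the count or within the counting interval, and 33 did not. No called value changed sign. Of those for single members, 10 kept their call and 10 lost it. At a 1.5-fold threshold H3K4 marked 6 members in mK4 and 5 in mK3, H3K27 marked 10 and 13, and 1 member was called higher and 1 lower for H3K4 and 3 and 3 for H3K27. With a pseudocount of 1, H3K4 marked 2 and H3K27 7 in mK4, and 2 were called higher for H3K27. With a pseudocount of 10, H3K27 marked 1 in mK4 and 3 in mK3, H3K4 marked 1 in mK3, and 0 were called for H3K27 in either direction. With exon length as background, H3K4 marked 2 in mK4, H3K27 marked 2 in each line, Fgf7 was called lower for H3K4 (1 member) and 0 higher for H3K27. Subtracting neighbour input left 0 called for H3K27 in either direction and Dusp6 higher for H3K4 (1 member). Subtracting own input gave Spry2 lower for H3K4 (1 member), 0 higher for H3K27, and Fgf18 in place of Fgf9 as the member lower for H3K27. With median-of-ratios size factors, with totals leaving out chromosomes 3, 7, 14, 15 and X, and with ratios centred on the median, 0 were called lower for H3K27, since Fgf9 lay at -0.94, -0.90 and -0.96. The H3K4 fold of the feedback and effector genes between the lines was 0.869 when divided by the input fold and 0.834 without Dusp6, and their H3K4 over input in mK4 was 1.19 without it. The H3K27 fold of the receptors was 0.929 without Fgfr1. These folds between the lines lie below 1, and those over all genes of each kind, 1.05 and 1.17, above it. Where no construction of the alternative shows it, the cause was not tested. No paired analysis was possible because each group has 1 library, and none could be left out. Depth limits the ligands most, the lowest of which had 1 to 3 reads in each library.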

Other observations

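Among all 14701 genes with a promoter entry, H3K27 lay higher over input at CpG-poor promoters, with a median of 0.27 on the log2 scale in mK4 and 0.26 in mK3, than at CpG-rich ones, with -0.32 and -0.26. The members followed the same order, with medians of 0.13 in mK4 and 0.34 in mK3 for 9 CpG-poor genes and -0.20 and -0.01 for 16 CpG-rich genes. Fgf7, which holds the mK4 median of 0.13, and Fgf9 were CpG-poor by the GC limit alone. No feedback or effector gene was among the 9 CpG-poor members. Whether H3K27 differed between the ligands and the feedback and effector genes apart from CpG class was not tested. For H3K4 the medians of all genes lay closer together. They were 0.02 in mK4 and 0.03 in mK3 at CpG-rich promoters, and -0.03 and -0.05 at CpG-poor ones.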
